A study of Mus musculus with 12 samples.

Results

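To examine how the stimulation shapes class switching once the 3′IgH CBEs are gone, junctions were compared between 2 stimulations of splenic B cells that lack them, αCD40/IL4 and LPS/αIgD-dextran. The libraries were taken by their labels, the 3 labelled 3CBEsD_IL4 and the 3 labelled 3CBEsD_LPS, which makes 6 of the 12 libraries of the series and 20851 of its 53012 junctions. The cells of both groups were mature B cells, purified by removal of CD43+ cells from the spleens of chimeric mice, and carried a deletion of all 3′IgH CBEs on both alleles. The chimeras were made by injecting deleted ES cells into RAG2-deficient blastocysts, so that the mature lymphocytes came from the ES cells, and the cells were AID-proficient. Both groups were cultured for 96 h, and the WT libraries, 3 for each stimulation, serve only as the background for each measure. The labels do not say whether the replicates came from separate chimeras or from separate ES clones, so every permutation p-value below measures the spread between these libraries. The p-values of Fisher's exact test compare summed junctions and hold no spread between libraries.

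Class switch recombination (CSR) joins a break in Sμ to a break in a downstream switch (S) region, so that the constant region behind that S region is expressed. AID starts both breaks by deaminating cytosines in repeats that transcription through the S region lays open, and AGCT is its best-known target. The stimulation decides which S regions are transcribed: αCD40/IL4, which imitates T-cell help, activates the promoters of Sγ1 and Sε, and LPS with αIgD-dextran, which combines a bacterial lipopolysaccharide with crosslinking of the B-cell receptor, activates those of Sγ3, Sγ2b and Sγ2a. The 3′IgH CBEs are CTCF-binding elements at the downstream end of IgH, beyond the enhancers of the 3′IgHRR, and bound CTCF can halt loop extrusion by cohesin. The stretch just below them, which the study calls the ectopic S region (eS), is no S region of the normal locus. In CSR-HTGTS-seq a primer at the 5′ end of Sμ, the bait, is extended on genomic DNA, and each junction gives the sequence to which the broken bait was joined, the prey. A junction is deletional where the prey runs in the direction of the locus, as in productive CSR, and inversional where it runs the other way.

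The αCD40/IL4 lists held 2273, 3307 and 3281 junctions in replicates 1 to 3 and the LPS/αIgD-dextran lists 2653, 4729 and 4608. Of these, 1961, 2329 and 1267 and then 2087, 2836 and 2958 lay in the window of chromosome 12 from 114400001 to 114700000 that covers the constant-region part of IgH, in coordinates of the AJ851868/mm9 hybrid genome. Replicate 3 of αCD40/IL4 stood apart: 61.4% of its junctions lay outside the window and 55.7% of all its preys were at least 70% G, against 0.264 to 21.2% in the other 5 libraries. No such G-rich prey lay inside the window. By the names of their reads the libraries came from 3 sequencing runs, with both replicates 1 in one run, replicate 2 of αCD40/IL4 and replicates 2 and 3 of LPS/αIgD-dextran in another, and replicate 3 of αCD40/IL4 alone in its run. Between pairs of libraries of different stimulation 0.758 to 1.74% of the distinct junctions of the smaller library, G-rich preys left out, were identical in bait end, prey position and orientation, and 1.34 to 3.70% between libraries of the same stimulation. The deposited αCD40/IL4 lists hold only a minor part of the Sγ1 junctions that the study counted for these libraries, so shares with Sγ1 in the denominator and sums with Sγ1 in the numerator both depend on that part. Across eS and the 3′IgH CBEs, the largest gap between junctions of the 6 libraries ran from 114453867 to 114465670, or 11803 bases. In WT, 4 libraries had 5 junctions in this gap. The gap was picked from these same junctions and holds few WT junctions, so it cannot show the deletion. All permutation tests below are two-sided and exact, adjusted values are by the Benjamini-Hochberg method, and 3 libraries against 3 cannot give a p below 0.1. A difference is called separate where the libraries of the stimulations do not overlap. Intervals and floors cover counting error only, since PCR products are not independent molecules.

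Reads of Sμ, of 4 acceptor S regions and of eS are printed to show what such joins look like. In the reads below, which are the first deletional read by name in replicate 1 for each region, the bait is in lower case and the prey in capitals, 5′ to 3′ as sequenced, with bases that could belong to either side left with the prey.
Sμ, αCD40/IL4: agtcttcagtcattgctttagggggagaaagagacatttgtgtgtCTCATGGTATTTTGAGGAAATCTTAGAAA
Sμ, LPS/αIgD-dextran: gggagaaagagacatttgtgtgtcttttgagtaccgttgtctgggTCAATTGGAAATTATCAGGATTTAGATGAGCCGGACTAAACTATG
Sγ1, αCD40/IL4: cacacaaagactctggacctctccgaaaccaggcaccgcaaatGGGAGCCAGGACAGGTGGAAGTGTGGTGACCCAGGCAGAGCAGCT
Sε, αCD40/IL4: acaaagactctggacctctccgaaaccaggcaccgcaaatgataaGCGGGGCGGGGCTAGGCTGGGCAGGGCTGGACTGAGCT
Sγ3, LPS/αIgD-dextran: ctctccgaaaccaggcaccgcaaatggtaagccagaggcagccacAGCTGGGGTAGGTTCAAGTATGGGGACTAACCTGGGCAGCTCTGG
Sγ2b, LPS/αIgD-dextran: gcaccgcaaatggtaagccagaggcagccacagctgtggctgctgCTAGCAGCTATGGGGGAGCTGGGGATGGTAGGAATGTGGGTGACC
eS, αCD40/IL4: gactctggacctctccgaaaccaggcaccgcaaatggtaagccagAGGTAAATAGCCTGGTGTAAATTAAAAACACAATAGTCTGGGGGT
eS, LPS/αIgD-dextran: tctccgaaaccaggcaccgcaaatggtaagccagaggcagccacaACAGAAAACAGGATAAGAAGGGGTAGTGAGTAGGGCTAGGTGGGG
The baits, shown by their last 45 bases at most, are 49 to 191 bases long, and the preys begin on the minus strand of chromosome 12 at 114669003, 114664491, 114575051, 114515032, 114604377, 114547198, 114448064 and 114450508, in that order. The bait of the first Sμ read ends at 114669095, close to its prey, while that of the second ends at 114669072, far above its prey. Overlaps of 2 bases join the αCD40/IL4 reads of Sμ, Sγ1 and Sε, an overlap of 5 bases joins the Sγ3 read, and the eS read of LPS/αIgD-dextran is a direct join with no overlap.

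As shares of the window, the regions split by stimulation. The αCD40/IL4 lists hold only a minor part of the Sγ1 junctions, so their Sγ1 shares are too low and their other shares too high. Of the 14 stretches into which the window was divided, 8 did not overlap between the libraries of the stimulations, which is 57.1%, with 6 higher and 2 lower under LPS/αIgD-dextran. Sγ1 (chromosome 12, 114556001 to 114585000) took 34.4, 33.4 and 35.0% of the junctions under αCD40/IL4 in replicates 1, 2 and 3 and 0.0958, 0.212 and 0.203% under LPS/αIgD-dextran. Sε (114505001 to 114521000), which lies in front of the constant region of IgE, took 9.33, 7.86 and 9.39% against 0.144, 0 and 0.0676%, where the library without an Sε junction allows a share of up to 0.106%. Both regions were high in all αCD40/IL4 libraries and did not overlap with LPS/αIgD-dextran. The order was the opposite for the S regions of IgG3, IgG2b and IgG2a. Sγ2b (114536001 to 114556000) took 0.306, 0.0429 and 0.237% under αCD40/IL4 and 16.2, 16.6 and 16.3% under LPS/αIgD-dextran. Sγ3 (114595001 to 114615000) took 0.102, 0.0859 and 0.0789% against 8.43, 7.65 and 8.52%, and Sγ2a (114521001 to 114536000) 0.0510, 0.0429 and 0.237% against 3.40, 3.60 and 3.25%. Every one of these 5 regions gave the smallest p that 3 libraries against 3 allow (exact permutation p = 0.1, adjusted 0.175 over 14 stretches). On junctions summed over libraries, which compares junctions and not replicates, Fisher's exact test gave an adjusted p of 3.41e-55 for Sγ2a and smaller values for the other 4.

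**Figure D1:**
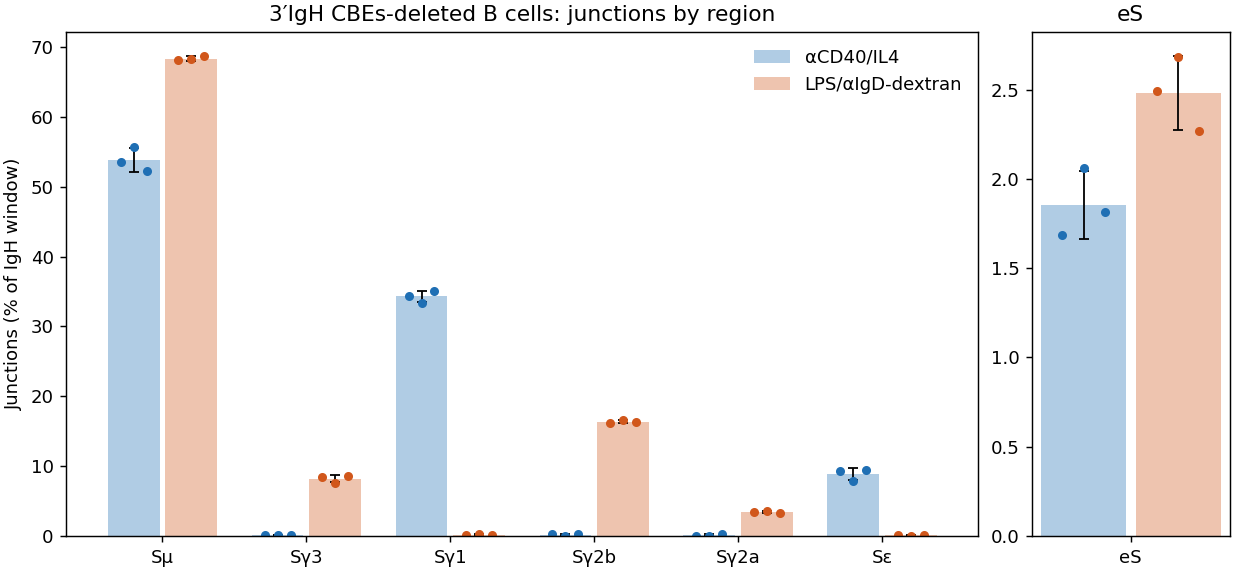
Share of the junctions in the IgH window that lay in each region, per library (points), with the mean (bars) and SD (error bars, n = 3 libraries), for αCD40/IL4 and LPS/αIgD-dextran. Sγ1 and Sε are high under αCD40/IL4, with means of 34.3 and 8.86%, Sγ2b, Sγ3 and Sγ2a under LPS/αIgD-dextran, with means of 16.4, 8.20 and 3.41%, and eS, on its own axis, is present under both. The αCD40/IL4 lists hold only a minor part of Sγ1, so the Sγ1 share is too low there and the other αCD40/IL4 shares are too high.

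Within a stimulation the order of the S regions was the same in all 3 libraries. Under αCD40/IL4 there were 3.69, 4.25 and 3.73 Sγ1 junctions for each Sε junction in the 3 libraries, a ratio that rests on the part of the Sγ1 junctions in the lists. Under LPS/αIgD-dextran Sγ2b held 1.93, 2.18 and 1.91 junctions for each in Sγ3, and 4.77, 4.63 and 5.01 for each in Sγ2a. The 1-kb step with the most Sγ2b junctions (114547001 to 114548000) held 42.4 to 46.9% of them in the 3 libraries, and the corresponding steps held 43.8 to 46.8% of the Sγ3 junctions (114604001 to 114605000), 30.2 to 43.7% of the Sγ2a junctions (114532001 to 114533000) and 37.2 to 51.3% of the Sε junctions (114514001 to 114515000). The highest step of Sγ1 (114577001 to 114578000) held 19.8 to 21.2% of its junctions.

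Each stimulation also left a few junctions in the S regions of the other. The 3 αCD40/IL4 libraries together had 5 junctions in Sγ3, 10 in Sγ2b and 5 in Sγ2a, none of which had the same bait end, prey position and orientation as a junction of an LPS/αIgD-dextran library. The LPS/αIgD-dextran libraries had 14 junctions in Sγ1 and 5 in Sε, and 1 of the Sγ1 junctions also stood in an αCD40/IL4 library. Pooled over libraries, the Sγ1 share was 192-fold and the Sε share 138-fold higher under αCD40/IL4, while the Sγ2b, Sγ3 and Sγ2a shares were 91.1-fold, 91.0-fold and 37.9-fold higher under LPS/αIgD-dextran. These folds rest on the few junctions of the lower group, most of whose libraries lay at or under the floor of 3 junctions. They also use αCD40/IL4 totals that lack the Sγ1 junctions missing from the lists. With those junctions absent the Sε fold is too high and the other folds are too low, which the ranges that follow do not cover. With a library left out, the Sε fold ran from 88.1 (without LPS/αIgD-dextran replicate 2) to 252.8 (without replicate 1), the Sγ2b fold from 58.8 (without αCD40/IL4 replicate 2) to 147.4 (without replicate 1) and the Sγ2a fold up to 73.2 (without αCD40/IL4 replicate 3). Sα (114494001 to 114505000), the S region of IgA, which neither stimulation is used to induce, held 2, 4 and 0 junctions under αCD40/IL4 and 4, 6 and 7 under LPS/αIgD-dextran. Its shares did not overlap, at 0.0912% ± 0.0864 and 0.213% ± 0.0225 (SD, n = 3), but on the summed junctions the adjusted p was 0.283 by Fisher's exact test. The Sα shares overlapped outside Sγ1, at 0.138% ± 0.130 and 0.214% ± 0.0227, and were in the opposite order outside Sμ and Sγ1, at 0.804% ± 0.785 and 0.678% ± 0.0794 (SD, n = 3).

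Junctions that stayed within Sμ (114657001 to 114675000) made up 53.5, 55.6 and 52.3% of the window under αCD40/IL4 and 68.1, 68.3 and 68.7% under LPS/αIgD-dextran, a difference of 14.5 percentage points with no overlap (exact permutation p = 0.1, adjusted 0.175). With Sγ1 left out of the denominator the order turned, to 81.9% ± 1.53 under αCD40/IL4 and 68.5% ± 0.342 under LPS/αIgD-dextran (SD, n = 3). Counting per 100 Sμ junctions takes Sγ1 out of the denominator, but the sum over acceptor S regions still holds it in the numerator. In the lists all acceptor S regions together (Sγ3, Sγ1, Sγ2b, Sγ2a, Sε and Sα) held 82.8, 74.8 and 86.0 junctions per 100 Sμ junctions under αCD40/IL4 and 41.9, 41.5 and 41.5 under LPS/αIgD-dextran (exact permutation p = 0.1, adjusted 0.157 over 11 ratios). The αCD40/IL4 values are too low by the Sγ1 junctions that the lists do not hold, so their distance from LPS/αIgD-dextran is no measure of total switching. The same holds in WT, where the lists gave 151.01 ± 6.43 under αCD40/IL4 and 146.9 ± 3.73 under LPS/αIgD-dextran (SD, n = 3). Without Sγ1 the direction turned, and the other acceptor S regions held 18.5, 14.7 and 19.0 junctions per 100 Sμ junctions under αCD40/IL4 and 41.7, 41.1 and 41.2 under LPS/αIgD-dextran. That sum stood at 71.6 ± 5.17 and 145.4 ± 4.06 in WT (SD, n = 3).

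On the same scale eS (chromosome 12, 114448001 to 114454000) did not separate by stimulation. It held 33, 48 and 23 junctions under αCD40/IL4, or 3.15, 3.70 and 3.47 per 100 Sμ junctions, and 52, 76 and 67 under LPS/αIgD-dextran, or 3.66, 3.92 and 3.30. The libraries overlapped (exact permutation p = 0.5, adjusted 0.5), and the pooled odds ratio of LPS/αIgD-dextran over αCD40/IL4 was 1.05 (exact 95% confidence interval 0.817 to 1.35, counting error only). As a share of the window, by contrast, eS stood at 1.85% ± 0.192 under αCD40/IL4 and at 2.48% ± 0.208 under LPS/αIgD-dextran (SD, n = 3) with no overlap (exact permutation p = 0.1, adjusted 0.175). The αCD40/IL4 share is too high, since its window lacks most of the Sγ1 junctions, so the stimulations lie further apart on the study's own shares. The direction changed with the denominator. Outside Sγ1 the eS share was 2.82% ± 0.265 and 2.48% ± 0.208, with overlap, and outside both Sμ and Sγ1 it was 15.7% ± 2.71 and 7.87% ± 0.615 (SD, n = 3), with every αCD40/IL4 library above every LPS/αIgD-dextran library. Per 100 Sμ junctions the direction also differed between the sequencing runs that held both stimulations, with LPS/αIgD-dextran minus αCD40/IL4 at 0.514 in one and at -0.0933 in the other. The other separate differences given here for region shares, Sμ preys and junctions outside the window kept their direction in both of these runs. Without overlap of libraries that direction was fixed in advance, so it is no check on the runs. No WT library had a junction within these edges of eS, which were read from the study's maps and so set the counts. The study's own eS counts are somewhat higher in every deleted library and include a WT junction.

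**Figure D2:**
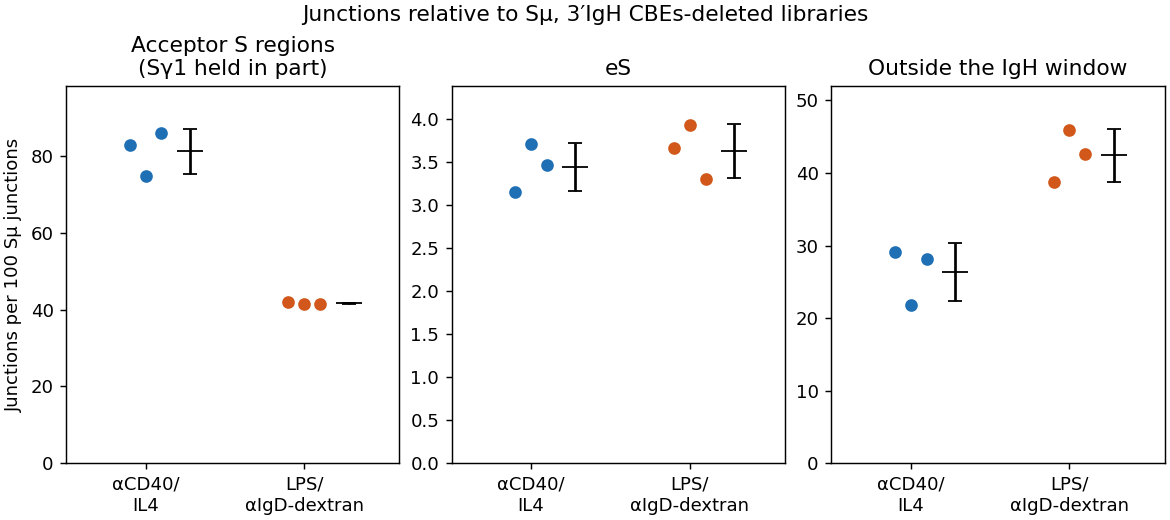
Junctions per 100 Sμ junctions in each library (points), with the mean and SD (n = 3 libraries), for all acceptor S regions together, for eS and for sequence outside the IgH window with G-rich preys left out. The acceptor S regions average 81.2 under αCD40/IL4, a value too low because the lists hold only part of Sγ1, and 41.6 under LPS/αIgD-dextran, eS overlaps between the stimulations, and the sequence outside the window averages 26.4 and 42.4.

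In steps of 3 kb, 33 bins of the window had at least 5 junctions over the 6 libraries, and 18 of them (54.5%) differed by stimulation, with a Benjamini-Hochberg adjusted p under 0.05 by Fisher's exact test and no overlap of libraries, 9 in each direction. The 5 largest rises under LPS/αIgD-dextran were 16.7 points in the bin from 114664001 in Sμ, 10.6 and 5.55 points in the bins from 114547001 and 114544001 in Sγ2b, 7.17 points in the bin from 114604001 in Sγ3 and 1.89 points in the bin from 114661001 in Sμ. The 5 largest differences the other way, as LPS/αIgD-dextran minus αCD40/IL4, were -12.3, -8.75 and -7.23 points in the Sγ1 bins from 114577001, 114574001 and 114571001, -6.86 points in the Sε bin from 114514001 and -4.48 points in the Sμ bin from 114667001. The αCD40/IL4 shares outside Sγ1 are too high, since the lists lack most of the Sγ1 junctions. The differences in the Sε and Sμ bins that were lower under LPS/αIgD-dextran are thus too large. In that Sμ bin the direction itself may depend on the missing junctions. With Sγ1 left out of the denominator, 11 bins were called. Neither 3-kb bin of eS was called, with adjusted p of 0.186 and 0.114 by Fisher's exact test.

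The largest rise of all lay in Sμ itself, where the stimulations spread the preys differently. The median distance from the primer down to the prey within Sμ was 807, 848 and 1104 bases under αCD40/IL4 and 1599, 1568 and 1762.5 bases under LPS/αIgD-dextran. The share of Sμ preys over 3 kb below the primer was 13.4, 13.2 and 15.1% under αCD40/IL4 and 35.5, 35.2 and 35.5% under LPS/αIgD-dextran. Neither measure overlapped between the stimulations (exact permutation p = 0.1 for each, adjusted 0.14 over 7 position measures). The first kilobase below the primer took 46.0% ± 5.09 of the Sμ preys under αCD40/IL4 and 30.01% ± 3.04 under LPS/αIgD-dextran (SD, n = 3). Steps from 3 to 4 kb and from 4 to 5 kb took 7.58% ± 0.926 and 4.87% ± 0.130 under αCD40/IL4 against 15.4% ± 0.152 and 15.2% ± 0.762 under LPS/αIgD-dextran. The difference was present in deletional junctions, whose median distance was 934.8 ± 213 against 2064 ± 162 bases, and in inversional ones, with 933 ± 90.8 against 1240 ± 46.6 bases (SD, n = 3), each without overlap. The preys of these steps differ in AGCT. Of the deletional Sμ preys with at least 60 aligned bases, AGCT stood within the first 60 bases of 26.1% under αCD40/IL4 and 29.9% under LPS/αIgD-dextran in the first kilobase, and of at least 93.6% in each of the 4 steps from 1 to 5 kb under either stimulation. From 5 to 6 kb it stood in 33.3% of 12 preys and 30.1% of 73 preys. Aligned preys in the window had median lengths of 96, 98 and 81 bases under αCD40/IL4 and 99, 95.5 and 95 bases under LPS/αIgD-dextran, and among preys of at least 50 bases the Sμ differences kept their direction without overlap.

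**Figure D3:**
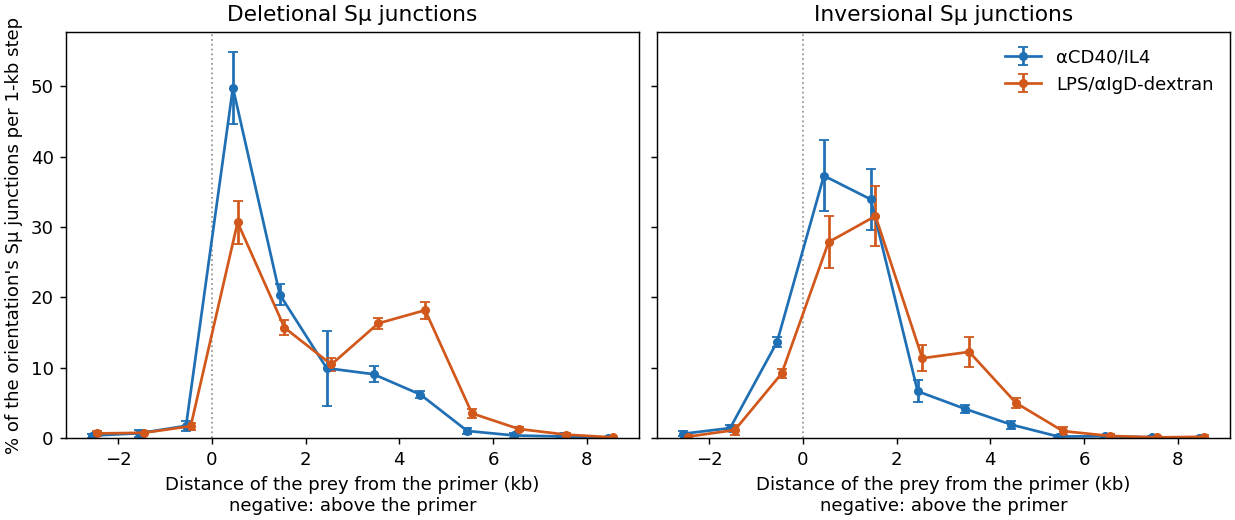
Share of the Sμ junctions of each orientation in steps of 1 kb by distance of the prey from the primer, as mean ± SD of 3 libraries per stimulation, with negative distances above the primer. In the first kilobase the deletional means are 49.8% under αCD40/IL4 and 30.6% under LPS/αIgD-dextran, and from 3 to 6 kb the LPS/αIgD-dextran libraries lie above the αCD40/IL4 libraries in both orientations.

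Orientation within Sμ differed too. Inversional junctions made up 28.3, 30.9 and 31.5% of the Sμ junctions under αCD40/IL4 and 22.2, 22.0 and 23.03% under LPS/αIgD-dextran, a fall of 7.86 percentage points with no overlap (exact permutation p = 0.1, adjusted 0.2 over 2 regions). In WT the order was the opposite, with 19.1, 18.8 and 20.5% under αCD40/IL4 and 22.4, 23.9 and 21.5% under LPS/αIgD-dextran. Only Sμ and eS had at least 5 junctions in all 6 libraries. For eS the inversional share was 12.1, 16.7 and 21.7% under αCD40/IL4 and 15.4, 23.7 and 14.9% under LPS/αIgD-dextran, with overlap (exact permutation p = 0.7). Of the S regions used under one stimulation, Sγ1 stood at 19.6 to 21.8% and Sε at 11.5 to 12.02% under αCD40/IL4, and Sγ3 at 13.4 to 17.1%, Sγ2b at 10.8 to 12.7% and Sγ2a at 6.25 to 15.5% under LPS/αIgD-dextran.

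The structure of the joins was compared by 12 measures. Direct joins, with neither overlap nor inserted bases, made up 23.1, 21.8 and 22.3% of the Sμ junctions under αCD40/IL4 and 20.3, 20.3 and 21.01% under LPS/αIgD-dextran, a fall of 1.86 points without overlap (exact permutation p = 0.1, adjusted 0.4 over 12 structure measures). Microhomology joins made up 56.8% ± 0.795 and 57.8% ± 0.803 of the Sμ junctions (SD, n = 3), with overlapping libraries. In the acceptor S regions the mean overlap of microhomology joins was 2.44, 2.57 and 2.50 bases under αCD40/IL4 and 2.34, 2.31 and 2.32 bases under LPS/αIgD-dextran, and inserted bases were present in 20.4% ± 1.93 and 22.2% ± 0.855 of the joins (SD, n = 3). Both of these were without overlap (exact permutation p = 0.1 for each, adjusted 0.4), but the acceptors compared are different sequences. For insertions the nearest libraries stood at 21.6 and 21.7%, and without αCD40/IL4 replicate 1 the difference was 0.653 in place of 1.77 points. For eS the libraries overlapped in all 4 structure measures, with direct joins at 33.6% ± 11.6 and 24.1% ± 6.44 (SD, n = 3). The bait kept a median of 70, 69 and 66 bases in joins to acceptor S regions under αCD40/IL4 and 78, 75 and 79.5 bases under LPS/αIgD-dextran, without overlap.

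Junctions of both stimulations lay along eS, and few positions repeated within or between stimulations. The 104 junctions of αCD40/IL4 used 99 positions and the 195 of LPS/αIgD-dextran 178, of which 9 positions were used under both, or 9.09 and 5.06% of each. The most frequent single position, 114449653, held 4 junctions, all under LPS/αIgD-dextran and inside an AGCT. Position 114448988 held 3 junctions, all under αCD40/IL4, while 114449040 held 3 under LPS/αIgD-dextran, and 114449121 and 114452968 held 3 each from both stimulations. Single positions were not tested at these counts. The median prey stood 2653, 2237 and 1684 bases above the low end of eS under αCD40/IL4 and 2602.5, 2787 and 2488 bases under LPS/αIgD-dextran, with overlap (exact permutation p = 0.3). The core of eS that the study plots, taken here as 114452500 to 114453100, held 30.3, 10.4 and 21.7% of the eS junctions under αCD40/IL4 and 11.5, 13.2 and 13.4% under LPS/αIgD-dextran (exact permutation p = 0.4). The αCD40/IL4 libraries lay on both sides of the LPS/αIgD-dextran ones.

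**Figure D4:**
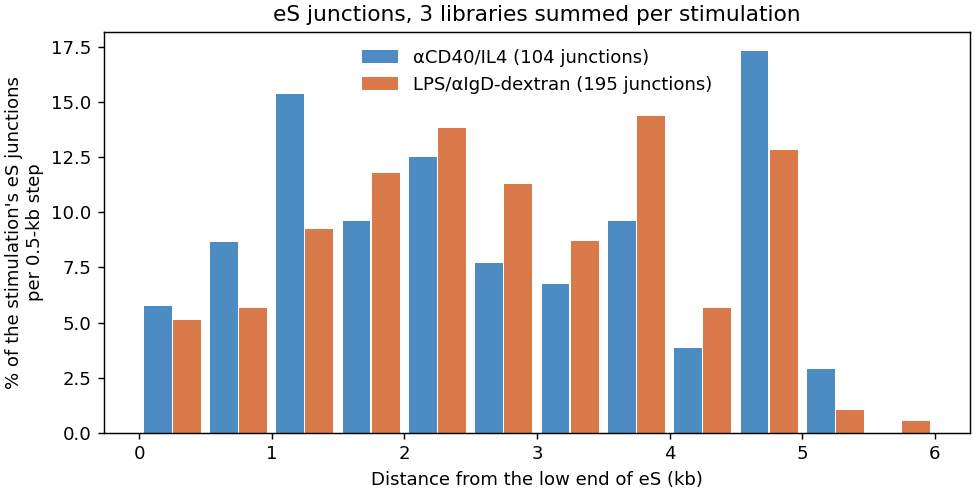
Share of each stimulation's eS junctions in steps of 0.5 kb by distance from the low end of eS, with the 3 libraries of a stimulation summed (104 junctions under αCD40/IL4 and 195 under LPS/αIgD-dextran). Both stimulations fill the first 5 kb, with their highest steps from 4.5 to 5 kb (17.3%) and from 3.5 to 4 kb (14.4%), and hardly reach the last kilobase. The highest step differs between libraries. Replicate 1 gave 9 of the 18 αCD40/IL4 junctions from 4.5 to 5 kb. LPS/αIgD-dextran replicate 3 had 7 junctions from 3.5 to 4 kb but 11 from 2 to 2.5 kb.

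In this part of the hybrid genome the sequence is that of mm9, and all 79 ungapped eS preys were identical to it. The 150-base windows of eS with the most junctions, shown because both stimulations and all 6 libraries hit them, are given on the plus strand of mm9 with the bases at which a prey began in capitals.
chr12:114451401-114451550: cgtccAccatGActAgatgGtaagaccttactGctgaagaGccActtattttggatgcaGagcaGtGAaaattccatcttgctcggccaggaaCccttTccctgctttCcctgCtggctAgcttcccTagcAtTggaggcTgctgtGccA
chr12:114448972-114449121: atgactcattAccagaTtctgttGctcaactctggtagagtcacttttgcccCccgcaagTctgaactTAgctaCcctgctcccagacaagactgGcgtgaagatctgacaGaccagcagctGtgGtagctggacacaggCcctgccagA
The first held 27 junctions at 23 positions, 7 under αCD40/IL4 and 20 under LPS/αIgD-dextran, and the second 21 junctions at 14 positions, 7 and 14. Neither lies in an annotated gene. AGCT occurs 1 time in the first and 3 times in the second, and 22 times in the whole of eS, where it covers 1.47% of the positions. Over the whole of eS 1.92% of the preys began inside an AGCT under αCD40/IL4 (Wilson 95% confidence interval 0.529 to 6.74) and 5.64% under LPS/αIgD-dextran (3.18 to 9.82). The wider AID motifs DGYW and WRCH cover 34.3% of eS, and 36.5% (27.9 to 46.1) and 45.1% (38.3 to 52.1) of the preys began inside them. The study reports that most junctions lay in AID motifs, but for the core of eS, and motifs were not counted for the core here. Per library the shares in DGYW/WRCH were 36.4, 33.3 and 43.5% under αCD40/IL4 and 48.1, 53.9 and 32.8% under LPS/αIgD-dextran, with overlap (exact permutation p = 0.4). Read from the deletional preys, which run with the transcribed direction of the locus, eS was lower in G and in AGCT than the S regions. Its first 60 prey bases were 25.3% ± 2.36 G under αCD40/IL4 and 24.6% ± 1.96 G under LPS/αIgD-dextran (SD, n = 3), and AGCT stood in 11.4% ± 6.73 and 18.3% ± 5.68 of the preys. The S regions had from 33.9% G in Sμ preys under αCD40/IL4 to 45.7% G in Sγ3 preys, and AGCT in 57.8% ± 8.22 (αCD40/IL4) and 68.4% ± 2.78 (LPS/αIgD-dextran) of the Sμ preys, 81.4% ± 2.65 of the Sγ2a preys, 83.3% ± 3.44 of the Sγ1 preys, 88.9% ± 3.28 of the Sε preys, 91.8% ± 6.12 of the Sγ3 preys and 94.3% ± 2.30 of the Sγ2b preys (SD, n = 3).

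Outside the window the stimulations differed once the G-rich preys were left out. The share of junctions outside the window was then 13.5, 10.8 and 12.9% under αCD40/IL4 and 20.9, 23.9 and 22.7% under LPS/αIgD-dextran, 1.81-fold higher without overlap (exact permutation p = 0.1). With Sγ1 left out of the denominator the difference was 4.77 points in place of 10.1, still without overlap. Per 100 Sμ junctions there were 29.2, 21.8 and 28.2 of them under αCD40/IL4 and 38.7, 45.9 and 42.7 under LPS/αIgD-dextran, again without overlap (exact permutation p = 0.1, adjusted 0.157). In WT the shares were 6.32% ± 0.610 and 7.16% ± 1.11 (SD, n = 3), with overlapping libraries. With all preys counted, the shares outside the window were 13.7, 29.6 and 61.4% and 21.3, 40.03 and 35.8%, which overlapped (exact permutation p = 1). The preys outside had a median length of 93.5, 88 and 79 bases under αCD40/IL4 and 128.5, 117 and 118 bases under LPS/αIgD-dextran, and with preys of at least 50 bases only, the difference was 10.4 points without overlap. The preys were spread over 20 or 21 chromosomes in each library, and no single position held more than 1.07% of a library's.

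With all preys counted, the 5 1-Mb bins with the most junctions outside the window were on chromosomes 5, 7, 14 and 10, held 95 to 190 junctions each at 11 to 29 positions, and had at most 2 junctions in either replicate 1. Without the G-rich preys, the leading bin was the one that holds IgH itself (chromosome 12, 114000001 to 115000000), with 19 junctions outside the window under αCD40/IL4 and 38 under LPS/αIgD-dextran. A large part of the latter lay in a short stretch just below the window, around Crip1 (chromosome 12, 114390223 to 114392088), which encodes a small LIM-domain protein, and the start of the gene 4930427A07Rik (114394632 to 114413736). From 114386001 to 114400000 the LPS/αIgD-dextran libraries had 3, 9 and 8 junctions and the αCD40/IL4 libraries had none, where 3 junctions are the floor for each library. These 20 junctions lay at 20 positions, 10 in each orientation, 51922 to 57545 bases below eS, and WT had 1 junction in the stretch, in an LPS/αIgD-dextran library. The stretch was picked after its values had been seen, so its difference is a description.

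Counted by gene, 32 protein-coding genes outside the window, with 2 kb added at either end, held at least 5 junctions over the 12 libraries, and 9 of them (28.1%) did not overlap between the stimulations in the deleted cells. Crip1 had 2, 6 and 7 junctions under LPS/αIgD-dextran and none under αCD40/IL4, and WT had 1 junction in an LPS/αIgD-dextran library. Clec2d and Il4ra stood the other way. Clec2d (chromosome 6, 129130633 to 129136552), a C-type lectin-like receptor, had 3, 2 and 3 junctions under αCD40/IL4 and 1, 0 and 0 under LPS/αIgD-dextran. Il4ra (chromosome 7, 132695785 to 132722986), the α chain of the receptor for IL4, had 1, 2 and 1 junctions under αCD40/IL4 and none under LPS/αIgD-dextran. WT libraries, whose junctions counted towards the minimum of 5, gave 4, 6 and 4 Clec2d junctions against 1, 1 and 0, and 7, 0 and 7 Il4ra junctions against 0 in all 3. The other genes without overlap were Gm10800, Pias1, Frmd4a, Pde4d and 4930427A07Rik, higher under LPS/αIgD-dextran, and Zfp36l1, higher under αCD40/IL4, with 3 to 7 junctions each in the 6 libraries. These genes are named because of their counts in these libraries, which are a description with no test. Within 1 Mb below the window as a whole there were 11 junctions under αCD40/IL4 and 25 under LPS/αIgD-dextran, and within 1 Mb above it 15 and 20, as shares 0.205% ± 0.180 against 0.236% ± 0.0751 and 0.228% ± 0.108 against 0.203% ± 0.0839 (SD, n = 3), with overlap (exact permutation p = 0.8 and 0.9).

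The stimulation difference in deleted cells was then set against that in WT by permuting the genotype within each stimulation, which gives 400 relabellings and a smallest p of 0.005. In WT, replicates 2 and 3 of LPS/αIgD-dextran shared 857 identical junctions, 16.5% of the smaller library against at most 3.75% for any other pair, so they may not be independent and n = 3 may overstate that group. Each relabelling also carries the genotype difference that both stimulations share. None of 19 measures had an adjusted p under 0.05, and 5 had an unadjusted exact permutation p of 0.05 or less. The Sγ1 share differed by -34.1 points between the stimulations in deleted cells and by -31.0 points in WT (exact permutation p = 0.005, adjusted 0.095), again with part of the Sγ1 junctions only. Per 100 Sμ junctions the order of the genotypes turned, with Sγ1 at -63.5 in deleted cells and -77.9 in WT (exact permutation p = 0.1, adjusted 0.146). The Sε share differed by -8.79 points in deleted cells and by -27.8 points in WT (exact permutation p = 0.02, adjusted 0.127), and likewise per 100 Sμ junctions, by -16.4 and -70.1. For Sγ2a, which separated by 3.30 points in deleted cells and by 22.8 points in WT, the exact permutation p was 0.055 (adjusted 0.146).

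Within Sμ the WT libraries showed the same direction of prey positions as the deleted ones. The share of Sμ preys over 3 kb below the primer was 12.2, 11.7 and 13.01% under αCD40/IL4 and 22.8, 19.7 and 20.6% under LPS/αIgD-dextran in WT, a difference of 8.74 points against 21.5 points in deleted cells (exact permutation p = 0.1, adjusted 0.146). The median distance differed by 226.5 bases in WT and by 723.5 bases in deleted cells (exact permutation p = 0.05, adjusted 0.146, and p = 0.085 without either of the WT libraries that share junctions). For the inversional share of Sμ, which rose by 3.16 points in WT libraries and fell by 7.86 points in deleted ones, the difference of differences was -11.02 points (exact permutation p = 0.04, adjusted 0.146). The share outside the window without G-rich preys differed by 0.843 points in WT and by 10.1 points in deleted cells (exact permutation p = 0.17, adjusted 0.231). Direct joins in Sμ differed by -1.82 and -1.86 points (exact permutation p = 0.98).

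**Figure D5:**
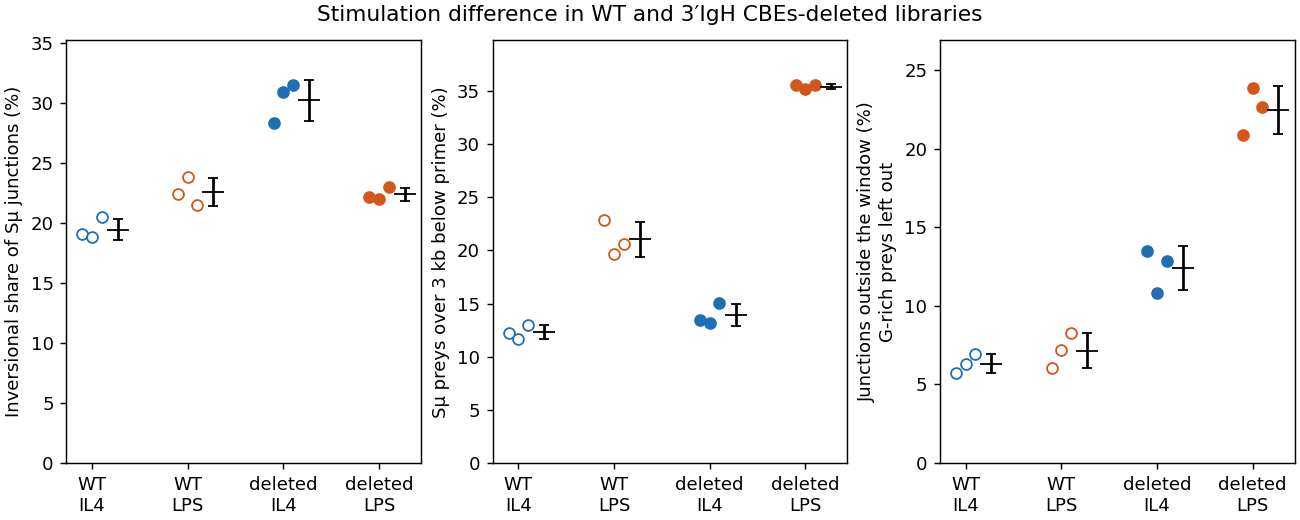
Inversional share of the Sμ junctions, share of the Sμ preys over 3 kb below the primer, and share of junctions outside the window with G-rich preys left out, in percent, for WT (open) and deleted (filled) libraries under each stimulation (points, n = 3 libraries per group). In the deleted cells each measure separates by stimulation, and the inversional share runs in the opposite direction to WT.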

How the data were processed

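CSR-HTGTS-seq junction lists of 12 libraries were used, 1 list per library. The authors aligned the reads with Bowtie2 (named in the submitters' processing notes, version not given in the sources used here) to an AJ851868/mm9 hybrid genome with their HTGTS pipeline and removed duplicates. The deposited lists hold positions, orientation and the aligned parts of bait and prey, with no normalised unit, and depth is the number of junctions, 2273 to 4729 per deleted library. Groups follow the labels. All junctions of the 6 libraries were kept, and shares, ratios and medians were computed per library (Python 3.11.15, numpy 2.4.6, pandas 2.3.3, scipy 1.17.1, pysam 0.24.0). Exact permutation tests replaced the t-test of the study's methods, since 3 libraries stood against 3. Bins of 3 kb with at least 5 junctions were compared on summed junctions (Fisher's exact test, adjusted p under 0.05 by Benjamini-Hochberg, no overlap of libraries). This step was tested on simulated counts first. Those counts had no added spread between libraries and no repeated PCR products, so the simulation cannot show how the step behaves with either. All regions were reported, and of the called bins the 5 largest in each direction, of 1-Mb bins outside the window the 5 with the most junctions. The 14 stretches were drawn from the study's maps. Genes outside the window and the stretch at Crip1 were named after their values were seen. The members and lists were chosen with earlier results of these data known. Sequence and genes of eS come from mm9 with GENCODE, whose letters matched all ungapped preys from the low end of the window up to the 3′IgHRR and none in the S regions. Alternatives covered denominator, region edges, orientation, repeated junctions, prey length, bin width, the replicate block and each library left out. No read of Sγ2a is printed here. The labels and the study's text differ on the serum in the medium.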

Additional observations from a re-analysis of the deposited data

Results flagged for a closer look

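The inversional share of the Sμ junctions ran in opposite directions in the 2 genotypes. Under LPS/αIgD-dextran it was lower than under αCD40/IL4 in the deleted libraries and higher in WT, with every library of one stimulation on one side, and the difference of differences was -11.02 points (exact permutation p = 0.04, adjusted 0.146 over 19 measures). Without WT LPS/αIgD-dextran replicate 3 it was -11.6 points (exact permutation p = 0.02) and without replicate 2 -10.4 points (exact permutation p = 0.075). Outside the IgH window, 15 junctions lay at Crip1 in the deleted LPS/αIgD-dextran libraries, in all 3 of them, against 0 in the deleted αCD40/IL4 libraries and 1 in the WT libraries.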

How the results depend on the processing

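Over 54 results and 420 recomputed values, 384 kept their direction and their side of the criterion, 16 turned their direction, 14 came to separate, 4 no longer separated and 2 counts moved by over 1.5 times. Many of the 384 were fixed in advance. Where the stimulations did not overlap, leaving a library out or pairing libraries by number could not change the direction or the separation. For differences from WT only the direction was compared anew, so their side of the criterion could not change. The cause of the changes was not tested. As LPS/αIgD-dextran minus αCD40/IL4, the Sμ share was -13.4 points outside Sγ1 and 11.02 points genome-wide, where it no longer separated. The eS share was -0.335 points outside Sγ1, -7.83 points outside Sμ and Sγ1, and 0.296 points genome-wide without G-rich preys, and eS per 100 Sμ junctions was -0.276 with deletional junctions only and -0.156 with preys of at least 50 bases, a setting added after seeing the data. All acceptor S regions per 100 Sμ junctions without Sγ1, also added later, gave 24.0. Bins of 1 kb gave 39 calls and the denominator outside Sγ1 gave 11, and 16 to 21 bins were called with a library left out. The bait end in Sμ differed by 12.6 bases as a mean and by 6 bases with deletional junctions only, and the share outside the window by 10.1 points without G-rich preys. On the log2 scale the difference from WT was 0.72 for the Sγ2b share, -2.29 for Sγ1 per 100 Sμ junctions and 0.40 for Sγ2b per 100 Sμ junctions. Without the log2 these differences were -4.84 points, 14.4 and -28.5, in that order. With each library left out in turn, the inversional share of eS ranged from -1.69 to 3.60 points (negative without αCD40/IL4 replicate 1 or LPS/αIgD-dextran replicate 2), the prey position in eS from 180.8 to 665.3 bases, its middle 2 kb from 5.93 to 22.3 points, its core from -13.3 to -3.37, its DGYW/WRCH share from 2.73 to 13.3, the share outside the window from -13.1 to 10.7 (positive without αCD40/IL4 replicate 3 or LPS/αIgD-dextran replicate 1) and the share outside on chromosome 12 from -0.0735 to 0.699 points, while direct joins against WT ran from -0.553 to 0.361 without WT LPS/αIgD-dextran replicate 2 or 3.

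Deviations from the group means of same-numbered libraries correlated at 0.430, -0.0556 and -0.515, with no common sign. Deviations from a mean of 3 libraries depend on each other, so these values cannot exclude pairing by replicate number. The replicate block takes differences of same-numbered libraries. Its mean paired differences were 14.5 points for the Sμ share, 0.626 points for the eS share and -7.86 points for the inversional share of Sμ. These means equal the unpaired differences, and libraries without overlap always give 1 sign in all 3 pairs, so these calls could not change. In the block 19 bins were called in place of 18. The microhomology shares of Sμ and of the acceptor S regions came to have 1 sign in all 3 pairs. With 3 pairs the exact sign-flip test cannot give a p below 0.25. At 1267 to 2958 junctions in the window per library, shares under 0.101 to 0.237% cannot be told from 0.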
